A study of Mus musculus with 4 samples.

Results

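The genes described here are 10 genes of the BAFF and CD40 pathway among the 41214 genes of the deposited count table. They were listed by name, with earlier results of these data known. They are the ligand gene Tnfsf13b, the receptor genes Tnfrsf13c, Tnfrsf13b, Tnfrsf17 and Cd40, the adaptor genes Traf1, Traf2, Traf3 and Traf5, and the kinase gene Map3k14. They were measured by RNA-seq in spleen cells that carry the surface marker B220, in 2 libraries of each genotype. MIZ-1ΔPOZ mice carried a floxed Miz-1 allele (Miz-1 floxPOZ) and MB1-Cre, which removes the POZ domain of the transcription factor MIZ-1 in B cells and leaves a truncated protein. MIZ-1WT mice, the controls, are labelled as wild type, and whether they carried MB1-Cre is not given in the sources used here. MB1-Cre is driven from the Cd79a locus, so its action starts in early B cell development, and B220 also marks plasmacytoid dendritic cells. All lines were backcrossed to C57BL/6, and the methods give 1 age range for the whole study and no age per library. The methods describe a positive selection for B220 with magnetic beads, and no stimulation is named for these libraries. The comparison asks how the deletion changes the transcript levels of a pathway on which naive B cells depend.

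BAFF, the product of Tnfsf13b, is made mainly by myeloid and stromal cells and keeps mature B cells alive. It binds 3 receptors, BAFF-R (Tnfrsf13c), TACI (Tnfrsf13b) and BCMA (Tnfrsf17), of which BAFF-R carries the survival signal of naive B cells, TACI restrains B cell numbers and supports T cell-independent antibody responses, and BCMA serves plasma cells. CD40 receives help from T cells through CD40 ligand. In resting B cells TRAF3, with TRAF2 and the ubiquitin ligases cIAP1 and cIAP2, keeps the kinase NIK (Map3k14) at a low protein level. Engagement of BAFF-R or CD40 removes TRAF3, NIK accumulates, and the precursor p100 (Nfkb2) is cut to the form that enters the nucleus with RelB. TRAF1 and TRAF5 are further adaptors of CD40 and related receptors.

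The stretch of 250 bases before the start is shown for Tnfrsf17, Tnfrsf13c and Traf1, the 3 genes that differed most between the genotypes. It is also shown for Traf3, whose stretch held the only match to a kappaB motif among the 9 members searched. Of the 10 members 9 had an entry in RefSeq on GRCm38.p6, and Cd40, without an entry, was not searched. The sequences shown are those of RefSeq. They are written 5′ to 3′ on the strand of the gene, and capitals mark the motif match.
Tnfrsf17, chr16:11313559-11313808, plus strand: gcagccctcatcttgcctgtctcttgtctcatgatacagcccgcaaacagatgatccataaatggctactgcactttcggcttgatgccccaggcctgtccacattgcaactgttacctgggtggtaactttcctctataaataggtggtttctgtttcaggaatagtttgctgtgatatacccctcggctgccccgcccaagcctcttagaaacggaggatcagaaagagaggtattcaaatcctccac
Tnfrsf13c, chr15:82224381-82224630, minus strand: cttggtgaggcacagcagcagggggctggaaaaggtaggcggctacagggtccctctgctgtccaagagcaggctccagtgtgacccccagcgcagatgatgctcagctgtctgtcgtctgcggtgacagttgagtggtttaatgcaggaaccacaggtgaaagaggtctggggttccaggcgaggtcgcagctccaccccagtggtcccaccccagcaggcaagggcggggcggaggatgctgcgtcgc
Traf1, chr2:34961773-34962022, minus strand: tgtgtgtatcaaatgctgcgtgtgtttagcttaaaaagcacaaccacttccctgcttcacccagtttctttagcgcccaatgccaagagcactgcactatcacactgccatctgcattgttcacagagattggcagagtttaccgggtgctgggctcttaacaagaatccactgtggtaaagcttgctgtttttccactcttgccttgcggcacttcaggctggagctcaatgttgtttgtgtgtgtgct
Traf3, chr12:111166120-111166369, plus strand: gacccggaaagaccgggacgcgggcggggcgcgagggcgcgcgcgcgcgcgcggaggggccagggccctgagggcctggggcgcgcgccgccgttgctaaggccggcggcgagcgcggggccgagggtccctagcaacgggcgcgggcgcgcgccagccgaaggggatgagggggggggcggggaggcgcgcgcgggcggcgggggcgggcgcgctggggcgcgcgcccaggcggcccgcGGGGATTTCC
Each stretch was searched on both strands for the kappaB motif bound by NF-kB, for ATCGAT, letters described in MIZ-1 binding sites, and for CACGTG, the E-box bound by MYC with MAX. The kappaB motif was found in 7.25% of 32851 RefSeq promoter stretches of the same length, ATCGAT in 0.728% and CACGTG in 6.02%. Neither ATCGAT nor CACGTG was found before any of the 9 matched members. The kappaB match of Traf3 lay in the last 10 bases before the start, on the gene's own strand. The Traf3 stretch held 85.2% G or C, against 63.2% for Tnfrsf13c, 49.2% for Tnfrsf17, 48.0% for Traf1 and a median of 52.4% over all promoters. A match describes letters and is not a measured binding site.

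Between 43026814 and 46387209 counts per library fell on genes, and the 14554 genes that reached 10 counts in 2 or more libraries were tested. Levels are in CPM, counts per 1000000 counts on genes after TMM scaling of the libraries. B cell transcripts were abundant in all libraries, since the 12 pan-B markers summed to 12010 and 12310 CPM in MIZ-1WT and to 9977 and 10440 CPM in MIZ-1ΔPOZ. These 12 markers were nonetheless lower in MIZ-1ΔPOZ for 9 genes, with a median log2 fold change of -0.26. The 16 macrophage markers summed to between 955 and 1268 CPM in MIZ-1WT and between 3580 and 5655 CPM in MIZ-1ΔPOZ, with 16 of 16 higher and none of them at 0 in all libraries. Each member's fold change below is given on the TMM scale and again after scaling each library to the 12 pan-B genes, which moves the median of all genes up by 0.297 on the log2 scale. On the TMM scale these 12 genes did not move together, from -0.53 for Cd37 to -0.05 for Blnk. Whether another choice of pan-B genes gives the same signs was not tested. In bulk libraries fewer cells of a type and less RNA per cell cannot be told apart. Xist stood at 1.12 and 1.43 CPM in MIZ-1WT and at 801 and 930 CPM in MIZ-1ΔPOZ, with the 4 Y-linked genes in the opposite direction, so sex and genotype cannot be told apart. The extraction protocol in the labels calls the libraries of a genotype a biological duplicate. They differed by more than counting noise (mean chi-square per gene of 9.79 in MIZ-1WT and 21.9 in MIZ-1ΔPOZ).

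Of the 10 members, 9 had enough reads to be tested, and all 9 differed between the genotypes. Tnfrsf17 and Traf1 rose in MIZ-1ΔPOZ cells, and Tnfrsf13c, Tnfrsf13b, Cd40, Traf2, Traf3, Traf5 and Map3k14 fell on the TMM scale, whereas Tnfrsf13b, Cd40, Traf2 and Map3k14 changed sign without passing the test once libraries were scaled to the pan-B genes. Over all tested genes the share past the same threshold was 40.0%, with 21.1% higher and 18.9% lower. The values of both genotypes did not overlap for any of the 9 members, as was the case for 74.8% of all tested genes. The threshold was an adjusted p of 0.05 by the quasi-likelihood test of edgeR with Benjamini-Hochberg adjustment over the 14554 genes. For the 9 members the median log2 fold change was -0.25, against -0.01 over all tested genes, whose quartiles lay at -0.23 and 0.33. Under pan-B scaling 3 members passed, namely Tnfrsf13c (lower), Tnfrsf17 (higher) and Traf1 (higher), where 51.1% of all tested genes passed, 46.7% higher and 4.44% lower.

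**Figure D1:**
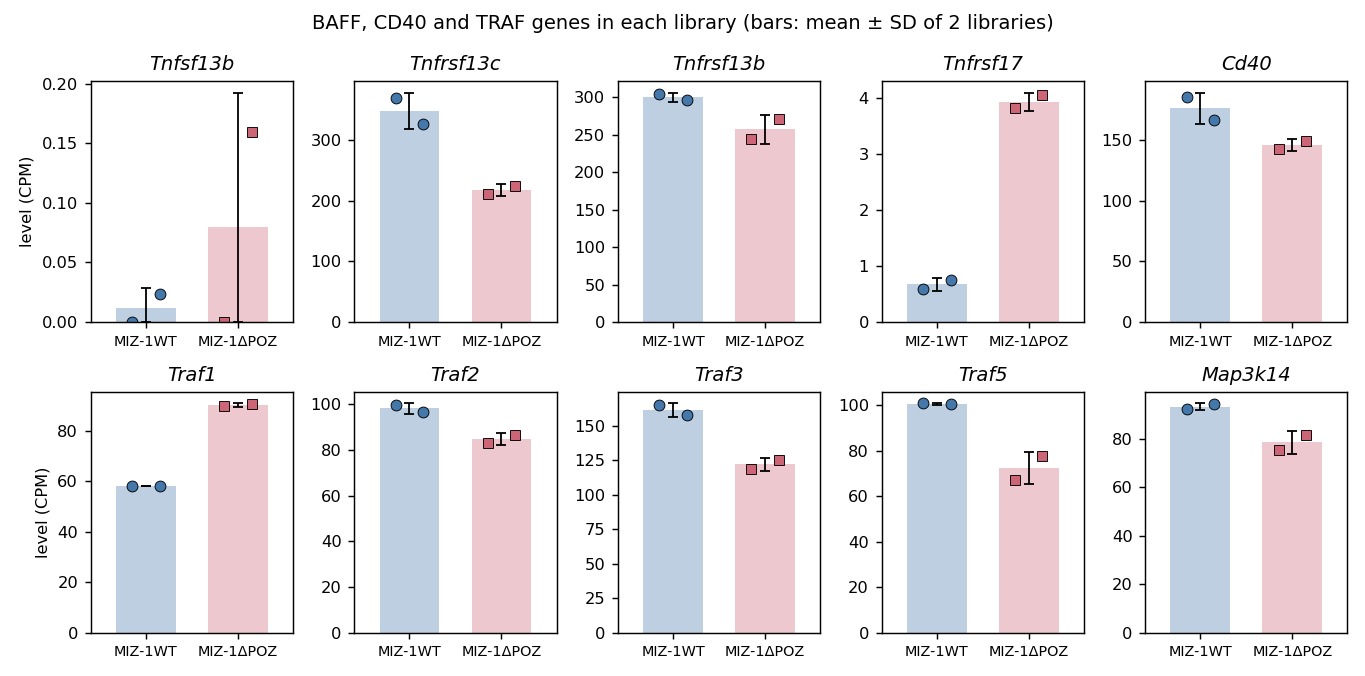
Level of each of the 10 genes in CPM on a linear axis that starts at 0, with a scale of its own for each gene; circles are MIZ-1WT libraries, squares MIZ-1ΔPOZ libraries, and bars with error bars the mean ± SD of 2 libraries. Tnfrsf17 and Traf1 stood higher in both MIZ-1ΔPOZ libraries and 7 genes stood lower on this TMM scale, while Tnfsf13b had reads in only 1 library of each genotype and was not tested.

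Tnfsf13b (ENSMUSG00000031497, chr8:10006467-10039072, plus strand, protein-coding) was close to absent from these cells. It had 0 and 1 reads in the MIZ-1WT libraries and 0 and 7 reads in the MIZ-1ΔPOZ libraries, and its highest level was 0.159 CPM. The limit that 3 counts set lay between 0.0630 and 0.0714 CPM per library, and the 8 reads were too few for the test. The ratio of MIZ-1ΔPOZ to MIZ-1WT reads, corrected for library size, was 6.55, with an exact 95% counting interval from 0.842 to 295, and all 7 MIZ-1ΔPOZ reads came from replicate 2. No difference in Tnfsf13b was therefore detectable at this depth.

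The BAFF receptor gene Tnfrsf13c (ENSMUSG00000068105, chr15:82221743-82224369, minus strand) had the largest decrease of the members. Its level was 369 and 326 CPM in MIZ-1WT and 210.2 and 224 CPM in MIZ-1ΔPOZ. Both MIZ-1ΔPOZ libraries lay well below the lower MIZ-1WT library, and the gap was larger than the spread within either genotype (348 ± 30.3 CPM against 217 ± 9.77 CPM, mean ± SD, n = 2 each). Tnfrsf13c fell by 0.68 on the log2 scale (SE 0.07, 95% interval -0.86 to -0.50, edgeR adjusted p = 0.00222), a change of -37.6%. Under pan-B scaling it fell by 0.38 (95% interval -0.56 to -0.21, edgeR adjusted p = 0.00446). It passed the threshold without each library in turn, with log2 fold changes between -0.77 and -0.59. Of all tested genes, 79.2% had a smaller difference in size.

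TACI, encoded by Tnfrsf13b (ENSMUSG00000010142, chr11:61126755-61149372, plus strand), moved less. Tnfrsf13b was at 305 and 296 CPM in MIZ-1WT and at 244 and 271 CPM in MIZ-1ΔPOZ, which is 300.3 ± 6.12 CPM against 258 ± 19.4 CPM (mean ± SD, n = 2 each). Tnfrsf13b fell by 0.22 on the log2 scale (SE 0.06, 95% interval -0.38 to -0.07, edgeR adjusted p = 0.0371), and 43.8% of tested genes had a smaller difference. Under pan-B scaling its value was 0.073 (95% interval -0.07 to 0.21, edgeR adjusted p = 0.343). Its call was also lost in edgeR without MIZ-1WT replicate 1 (adjusted p = 0.180), without MIZ-1WT replicate 2 (0.120) and without MIZ-1ΔPOZ replicate 1 (0.0845).

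BCMA showed the largest relative difference of the members. Tnfrsf17 (ENSMUSG00000022496, chr16:11313812-11320074, plus strand) had 26 and 32 reads in the MIZ-1WT libraries and 182 and 178 reads in the MIZ-1ΔPOZ libraries, or 0.596 and 0.761 CPM against 3.82 and 4.06 CPM. Every MIZ-1ΔPOZ library lay above every MIZ-1WT library, at 3.94 ± 0.164 CPM against 0.679 ± 0.117 CPM (mean ± SD, n = 2 each). Tnfrsf17 rose 5.79-fold (95% interval 4.03 to 8.33-fold, log2 fold change 2.53, SE 0.21, edgeR adjusted p = 0.00134). The log2 fold change was 2.83 under pan-B scaling, and 99.0% of tested genes had a smaller difference. Tnfrsf17 is itself a plasma cell marker, and of the other 7 markers on that list 6 rose. These 7 markers summed to between 673 and 1006 CPM in MIZ-1WT and between 2358 and 2535 CPM in MIZ-1ΔPOZ, and none was at 0 in all libraries. Among them Prdm1, the transcription factor of plasma cell differentiation, rose by 1.40 on the log2 scale (edgeR adjusted p = 0.000887). Jchain, the joining chain of secreted IgM and IgA, was at 302 and 616 CPM in MIZ-1WT and at 1948 and 1787 CPM in MIZ-1ΔPOZ and rose by 2.03 (edgeR adjusted p = 0.00616). With 1 library left out at a time, the log2 fold change of Jchain ranged from 1.599 to 2.625. The lowest value came without MIZ-1WT replicate 1 and the highest without MIZ-1WT replicate 2. The part of plasma cells in the Tnfrsf17 result was not tested.

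Within each library the 3 receptor transcripts can be set against each other per kilobase of exon, a measure that does not depend on how libraries are scaled. Tnfrsf13c made up 62.5% and 60.2% of their summed level in MIZ-1WT and 53.1% and 52.1% in MIZ-1ΔPOZ. Tnfrsf13b made up 37.3% and 39.4% in MIZ-1WT and 44.5% and 45.6% in MIZ-1ΔPOZ. Tnfrsf17 made up 0.254% and 0.353% in MIZ-1WT and 2.43% and 2.37% in MIZ-1ΔPOZ. None of the 3 shares overlapped between genotypes. The ratio of Tnfrsf13c to Tnfrsf13b per length was 1.68 and 1.53 in MIZ-1WT and 1.19 and 1.14 in MIZ-1ΔPOZ. An exact two-sided permutation test gave p = 0.333 for each share and for the ratio, the smallest value that 2 libraries against 2 allow, so a p under 0.05 could not be reached.

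**Figure D2:**
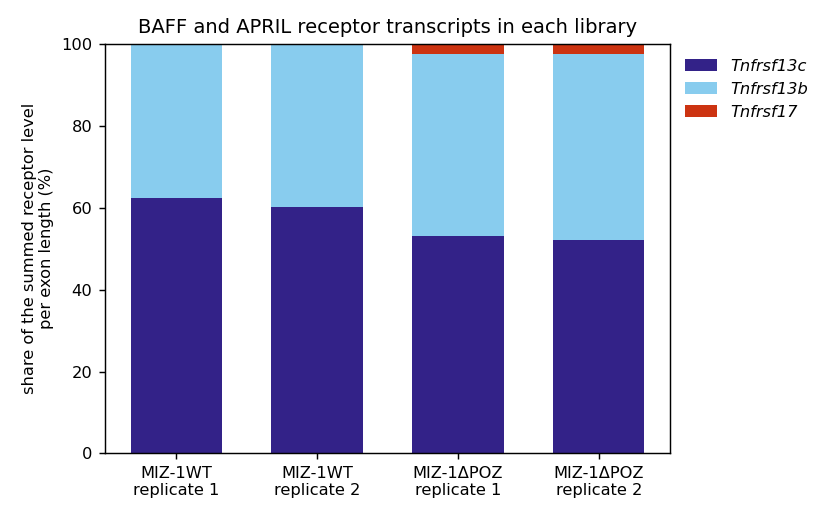
Share in percent of Tnfrsf13c, Tnfrsf13b and Tnfrsf17 in the summed level of these 3 transcripts per kilobase of exon, as 1 stacked bar for each library. Tnfrsf13c takes 62.5% and 60.2% of the MIZ-1WT bars and 53.1% and 52.1% of the MIZ-1ΔPOZ bars, and the Tnfrsf17 segment, too thin to see in MIZ-1WT, becomes visible at the top of the MIZ-1ΔPOZ bars.

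Cd40 (ENSMUSG00000017652, chr2:165055627-165072948, plus strand), the receptor for T cell help, was at 185 and 167 CPM in MIZ-1WT and at 142 and 149 CPM in MIZ-1ΔPOZ. The genotypes did not overlap, at 176 ± 13.1 CPM against 146 ± 4.62 CPM (mean ± SD, n = 2 each). Cd40 fell by 0.27 on the log2 scale (SE 0.06, 95% interval -0.43 to -0.11, edgeR adjusted p = 0.0215) but stood at 0.025 under pan-B scaling (95% interval -0.14 to 0.19, edgeR adjusted p = 0.797). Without MIZ-1WT replicate 1 its edgeR adjusted p was 0.133.

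Traf1 was the only adaptor gene among the members that rose. Traf1 (ENSMUSG00000026875, chr2:34941750-34961772, minus strand) encodes an adaptor that lacks the RING domain of the other TRAF proteins and is itself induced by NF-kB. Its level was 58.3 and 58.3 CPM in MIZ-1WT and 89.9 and 90.8 CPM in MIZ-1ΔPOZ. The libraries of a genotype were nearly alike, at 58.3 ± 0.0124 CPM and 90.3 ± 0.676 CPM (mean ± SD, n = 2 each), far closer to each other than to the other genotype. An SD from 2 values is a poor measure of spread, and the SE below draws on all tested genes. Traf1 rose by 0.63 on the log2 scale, or 55.1% (SE 0.05, 95% interval 0.52 to 0.75, edgeR adjusted p = 0.00108), and by 0.93 under pan-B scaling (edgeR adjusted p = 0.000117). Leaving out any library kept it between 0.63 and 0.65, and 77.4% of tested genes had a smaller difference. All 16 macrophage markers and 7 of 8 plasma cell markers were higher in MIZ-1ΔPOZ as well, and their part in the Traf1 result was not tested.

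Traf3 (ENSMUSG00000021277, chr12:111166370-111267153, plus strand), which brings NIK to degradation, was at 165 and 158 CPM in MIZ-1WT and at 119 and 125 CPM in MIZ-1ΔPOZ. The gap between the genotypes was larger than the spread within them (161 ± 5.09 CPM against 122 ± 4.47 CPM, mean ± SD, n = 2 each). Traf3 fell by 0.40 on the log2 scale (SE 0.05, 95% interval -0.53 to -0.28, edgeR adjusted p = 0.00344), and it passed without each library in turn. Under pan-B scaling its value was -0.11 (95% interval -0.25 to 0.04, edgeR adjusted p = 0.193).

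Traf2 (ENSMUSG00000026942, chr2:25517982-25546940, minus strand), which links TRAF3 to the cIAP ligases, was at 99.8 and 96.6 CPM in MIZ-1WT and at 83.1 and 86.6 CPM in MIZ-1ΔPOZ. Traf2 fell by 0.21 on the log2 scale (SE 0.05, edgeR adjusted p = 0.0216) and stood at 0.085 under pan-B scaling (95% interval -0.07 to 0.24, edgeR adjusted p = 0.311). Its call was lost in edgeR without MIZ-1WT replicate 1 (adjusted p = 0.154) or replicate 2 (0.0921). Traf5 (ENSMUSG00000026637, chr1:191997205-192092559, minus strand), another adaptor of CD40, was at 101 and 100.4 CPM in MIZ-1WT and at 67.3 and 77.5 CPM in MIZ-1ΔPOZ. Traf5 fell by 0.47 on the log2 scale (SE 0.08, 95% interval -0.66 to -0.29, edgeR adjusted p = 0.00645). Its value was -0.18 under pan-B scaling (95% interval -0.35 to -0.01, edgeR adjusted p = 0.0673), and without MIZ-1WT replicate 1 its edgeR adjusted p was 0.0512. The exons of Traf5 share 205 bases with Gm26879 on the opposite strand and 65 with Mir3473c on the same strand, and the strand setting of the counting is not given in the sources used here.

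Map3k14 (ENSMUSG00000020941, chr11:103219762-103267472, minus strand), which encodes NIK, was at 92.3 and 94.3 CPM in MIZ-1WT and at 75.3 and 81.8 CPM in MIZ-1ΔPOZ. Map3k14 fell by 0.25 on the log2 scale (SE 0.06, 95% interval -0.39 to -0.10, edgeR adjusted p = 0.0210) and stood at 0.047 under pan-B scaling (95% interval -0.11 to 0.20, edgeR adjusted p = 0.573). Its call was lost in edgeR without MIZ-1WT replicate 1 (adjusted p = 0.103) or replicate 2 (0.122). NIK is controlled mainly at the protein level, which was not measured here. A stretch of 135 exon bases is shared with 1700028N14Rik on the same strand.

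**Figure D3:**
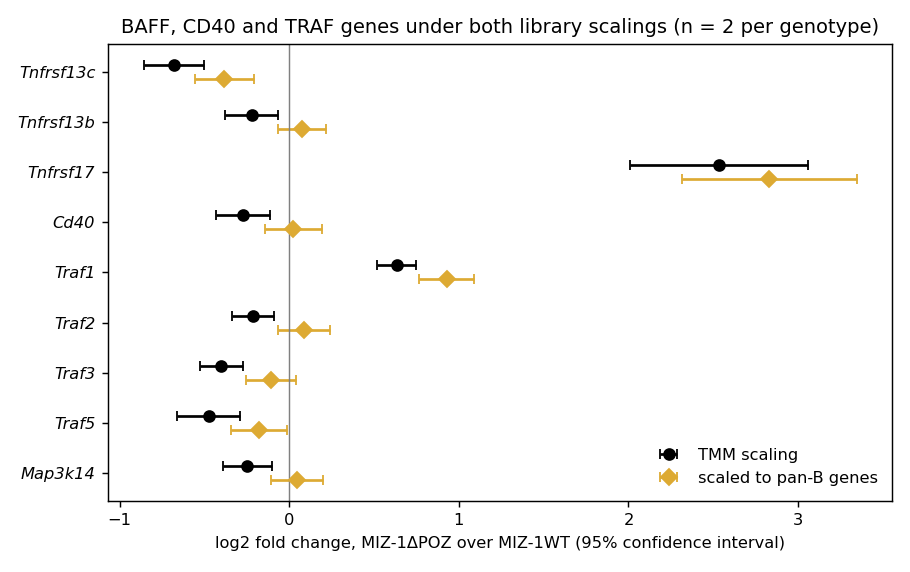
Log2 fold change of MIZ-1ΔPOZ over MIZ-1WT with its 95% confidence interval for the 9 tested genes, on the TMM scale (black circles) and after scaling to 12 pan-B genes (yellow diamonds), n = 2 libraries per genotype. Tnfrsf17 and Traf1 lie above 0 and Tnfrsf13c below 0 on both scales, while Tnfrsf13b, Cd40, Traf2 and Map3k14 lie below 0 on the TMM scale and slightly above 0, with intervals that include 0, on the pan-B scale.

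Ratios between members within a library also do not depend on the scaling. Per kilobase of exon, the ratio of Traf1 to Traf2 was 0.337 and 0.349 in MIZ-1WT and 0.626 and 0.606 in MIZ-1ΔPOZ. The ratio of Traf3 to Traf2 was 1.15 and 1.13 in MIZ-1WT and 0.993 and 1.00 in MIZ-1ΔPOZ. The ratio of Map3k14 to Traf3 was 0.628 and 0.671 in MIZ-1WT and 0.711 and 0.733 in MIZ-1ΔPOZ. No ratio overlapped between the genotypes, and the exact two-sided permutation p was 0.333 for each, again the smallest possible.

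The order of the members by level was set per kilobase of exon, counting every annotated exon base. In MIZ-1WT Tnfrsf13c was the most abundant (170 ± 14.8 CPM per kilobase), followed by Tnfrsf13b (106 ± 2.16) and Cd40 (51.6 ± 3.84). Traf5 (22.0 ± 0.0681) and Traf3 (21.9 ± 0.692) came next and did not differ beyond their spread, then Traf2 (19.3 ± 0.442), Map3k14 (14.2 ± 0.218), Traf1 (6.61 ± 0.00140), Tnfrsf17 (0.833 ± 0.143) and Tnfsf13b at the bottom (all mean ± SD, n = 2). In MIZ-1ΔPOZ the 3 most abundant genes kept their places at 106 ± 4.77, 90.8 ± 6.83 and 42.8 ± 1.36 CPM per kilobase. Traf2 (16.6 ± 0.489), Traf3 (16.6 ± 0.608) and Traf5 (15.9 ± 1.58) then overlapped, and Traf1 stood at 10.2 ± 0.0766, just below Map3k14 (12.0 ± 0.706). With the length of the longest transcript in place of all exon bases, the order from rank 4 to rank 8 in MIZ-1ΔPOZ became Traf5, Traf1, Traf2, Map3k14 and Traf3, in place of Traf2, Traf3, Traf5, Map3k14 and Traf1. In MIZ-1WT Traf1 stayed at rank 8 and Traf2 and Traf3 exchanged ranks 5 and 6. With that length the lower Tnfrsf13c library overlapped the upper Tnfrsf13b library in MIZ-1ΔPOZ.

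The members were then set beside 95 other genes of the pathway in 6 lists, of which 93 were tested. On the TMM scale 21 rose and 21 fell, 45.2% in all, with a median log2 fold change of -0.01, whereas under pan-B scaling 43 rose and 5 fell. These shares were near those of all tested genes, with 22.6% higher and 22.6% lower against 21.1% and 18.9% on the TMM scale, and 46.2% higher and 5.38% lower against 46.7% and 4.44% under pan-B scaling. None of the lists was tested as a set.

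Among the other ligands, 2 of 12 tested rose and 2 fell, with a median of 0.24. Tnfsf13 encodes APRIL, which binds TACI and BCMA, and had 13 and 24 reads in MIZ-1WT and 71 and 52 reads in MIZ-1ΔPOZ. It rose by 1.62 on the log2 scale (SE 0.36, edgeR adjusted p = 0.0178). This value is uncertain, since Tnfsf13 shares 983 exon bases with the readthrough gene Tnfsfm13 on its own strand and 221 with Tnfsf13os on the opposite strand. Tnfsf14 (LIGHT), a ligand of the lymphotoxin beta receptor, rose by 1.12 (edgeR adjusted p = 0.0255). Ltb and Tnf, which B cells make to organise follicles, fell by 0.38 (edgeR adjusted p = 0.00647) and by 0.55 (edgeR adjusted p = 0.00690) on the TMM scale and stood at -0.08 and -0.26 without passing under pan-B scaling. Without MIZ-1WT replicate 1 none of these 4 ligand genes passed in edgeR (adjusted p of 0.0812 for Tnfsf13, 0.123 for Tnfsf14, 0.0553 for Ltb and 0.0591 for Tnf). Tnfsf14 also did not pass without MIZ-1WT replicate 2 (0.0895), without MIZ-1ΔPOZ replicate 1 (0.107) or in DESeq2. The ligand of CD40 itself, Cd40lg, expressed mainly by T cells, had 6 and 3 reads in MIZ-1WT and 5 and 2 in MIZ-1ΔPOZ and was not tested. The 13 T cell markers summed to between 37.9 and 65.1 CPM over the libraries, and 2 of 13 were higher in MIZ-1ΔPOZ.

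Of the 18 other TNF receptor genes 7 rose, 2 fell and 9 did not pass, with a median of 0.44. Ltbr, the lymphotoxin beta receptor of stromal and myeloid cells, was at 1.70 and 2.19 CPM in MIZ-1WT and at 9.20 and 6.29 CPM in MIZ-1ΔPOZ and rose by 2.00 on the log2 scale (SE 0.25, edgeR adjusted p = 0.00318). Tnfrsf21 (death receptor 6) rose by 1.32 (edgeR adjusted p = 0.00173) and the death receptor gene Fas by 1.09 (edgeR adjusted p = 0.00232). Tnfrsf19 fell by 3.14 (SE 0.37, edgeR adjusted p = 0.00274), from 7.50 and 4.78 CPM in MIZ-1WT to 0.483 and 0.911 CPM in MIZ-1ΔPOZ. These 4 genes kept their direction under pan-B scaling and passed without each library in turn. The macrophage markers, whose values are given above, rose beside Ltbr, and their part in it was not tested.

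Birc2, Birc3, Nfkb2 and Relb, 4 named genes of the pathway through TRAF2, TRAF3 and NIK, did not pass on the TMM scale. Birc2 (cIAP1) had a log2 fold change of -0.01 (95% interval -0.15 to 0.12, edgeR adjusted p = 0.870) and Birc3 (cIAP2) of 0.06 (95% interval -0.10 to 0.22, edgeR adjusted p = 0.523). Nfkb2, the gene of p100, was at 234, 232, 222 and 239 CPM in MIZ-1WT replicates 1 and 2 and MIZ-1ΔPOZ replicates 1 and 2, with a log2 fold change of -0.02 (95% interval -0.14 to 0.11, edgeR adjusted p = 0.822). Relb had a log2 fold change of -0.05 (95% interval -0.20 to 0.10, edgeR adjusted p = 0.521). Under pan-B scaling these 4 genes passed as higher, with log2 fold changes of 0.29 for Birc2, 0.35 for Birc3, 0.28 for Nfkb2 and 0.25 for Relb (edgeR adjusted p of 0.0161, 0.00482, 0.00554 and 0.0466). These values lie near the median of all tested genes under that scaling, 0.29, where 46.7% of all tested genes passed as higher.

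In the list of other TRAFs, cIAPs and adaptors 0 of 13 rose and 5 fell (median -0.10), whereas under pan-B scaling 6 rose and 0 fell. Traf3ip3, a TRAF3-interacting protein abundant in lymphocytes, fell by 0.38 (edgeR adjusted p = 0.00305), the caspase inhibitor gene Xiap by 0.35 (edgeR adjusted p = 0.00413) and Traf3ip2 (Act1) by 0.45 (edgeR adjusted p = 0.00883), and under pan-B scaling none of these passed. Traf3ip2 did not pass without MIZ-1WT replicate 1 (edgeR adjusted p = 0.0664). Traf6, an adaptor of CD40 and Toll-like receptors, fell by 0.21 (edgeR adjusted p = 0.0352) and stood at 0.082 under pan-B scaling. It did not pass in edgeR without MIZ-1WT replicate 1 (adjusted p = 0.201) or replicate 2 (0.0776) or without MIZ-1ΔPOZ replicate 1 (0.107), nor with a mean of at least 5 CPM or with the replicate block.

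Of the 14 kinases and NF-kB subunits 1 rose and 4 fell (median -0.08), whereas 7 rose and 2 fell under pan-B scaling. Ikbkb, the catalytic kinase of the classical NF-kB pathway, was at 356 and 357 CPM in MIZ-1WT and at 189 and 211 CPM in MIZ-1ΔPOZ. It fell by 0.83 (SE 0.06, edgeR adjusted p = 0.00108) and by 0.54 under pan-B scaling (edgeR adjusted p = 0.000446), and it passed without each library in turn. Rel (c-Rel) fell by 0.60 (edgeR adjusted p = 0.0125) and by 0.31 under pan-B scaling (edgeR adjusted p = 0.0470), and without MIZ-1WT replicate 1 it did not pass (edgeR adjusted p = 0.0661). Rela and Nfkb1, the subunits p65 and p105, fell by 0.27 (edgeR adjusted p = 0.0226) and 0.20 (edgeR adjusted p = 0.0233) on the TMM scale and changed sign under pan-B scaling, at 0.027 and 0.098, without passing. In edgeR they also did not pass without MIZ-1WT replicate 1 (adjusted p of 0.126 and 0.0993), MIZ-1WT replicate 2 (0.0879 and 0.141) or MIZ-1ΔPOZ replicate 1 (0.0738 and 0.0621).

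Of the 16 brakes and ubiquitin enzymes 0 rose and 5 fell (median -0.14), whereas 4 rose and 0 fell under pan-B scaling. Among them Rnf31 (HOIP), Tnip2, Peli1 and Otud5 fell by 0.37, 0.34, 0.44 and 0.26 on the TMM scale (edgeR adjusted p of 0.00572, 0.00765, 0.0121 and 0.00699), and none of these passed under pan-B scaling, where Otud5 stood at 0.034. Without MIZ-1WT replicate 1 none of these 4 passed (edgeR adjusted p between 0.0516 and 0.0823), and without MIZ-1WT replicate 2 Otud5 (0.0510) and Tnip2 (0.0548) did not.

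Of the 20 genes that BAFF or CD40 signals are known to change, 11 rose, 3 fell and 6 did not pass, with a median of 0.34. Over all tested genes 21.1% rose and 18.9% fell, with a median of -0.01. The list includes Cr2, also used as a marginal zone marker, Fcer2a, also used as a follicular marker, and Bcl2a1a with its copies Bcl2a1b and Bcl2a1d. The adhesion receptor gene Cd44 rose by 0.69 on the log2 scale (edgeR adjusted p = 0.00145), the kinase gene Pim1 by 0.65 (edgeR adjusted p = 0.00178) and Bcl2a1a, a survival gene, by 1.90 (edgeR adjusted p = 0.00359). Bcl2a1a has near-identical copies that can share its reads, and its value is uncertain. It stood at 1.03 and 1.05 CPM in MIZ-1WT, against 24.0 and 22.8 CPM for its copy Bcl2a1b and 9.28 and 10.4 CPM for Bcl2a1d. These copies, also in the list but outside the naming rule, rose less, by 0.36 (edgeR adjusted p = 0.00951) and 0.39 (edgeR adjusted p = 0.0329). Other survival and death genes of this list outside the naming rule, chosen after their values were seen, moved in different directions. Bcl2 rose by 0.32 on the TMM scale (edgeR adjusted p = 0.00380) and by 0.62 under pan-B scaling (edgeR adjusted p = 0.000276). Mcl1 fell by 0.36 on the TMM scale (edgeR adjusted p = 0.00515) and stood at -0.068 without passing under pan-B scaling. Bcl2l1 and Bcl2l11 did not pass on the TMM scale (edgeR adjusted p of 0.516 and 0.504). Cd44, Pim1, Bcl2a1a, Bcl2 and Mcl1 kept their direction without each library in turn. Under pan-B scaling 13 of the 20 rose and 1 fell, where 46.7% of all tested genes were higher and 4.44% lower. The 7 germinal center markers, which include Fas, summed to between 166 and 168 CPM in MIZ-1WT and between 248 and 295 CPM in MIZ-1ΔPOZ. Of these, 6 were higher and 1 was lower, and none was at 0 in all libraries. The lower marker, Bcl6, was at 114 and 105 CPM in MIZ-1WT and at 42.7 and 43.0 CPM in MIZ-1ΔPOZ. Bcl6 fell by 1.36 on the log2 scale (edgeR adjusted p = 0.000682). The part of germinal center cells in these results was not tested.

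**Figure D4:**
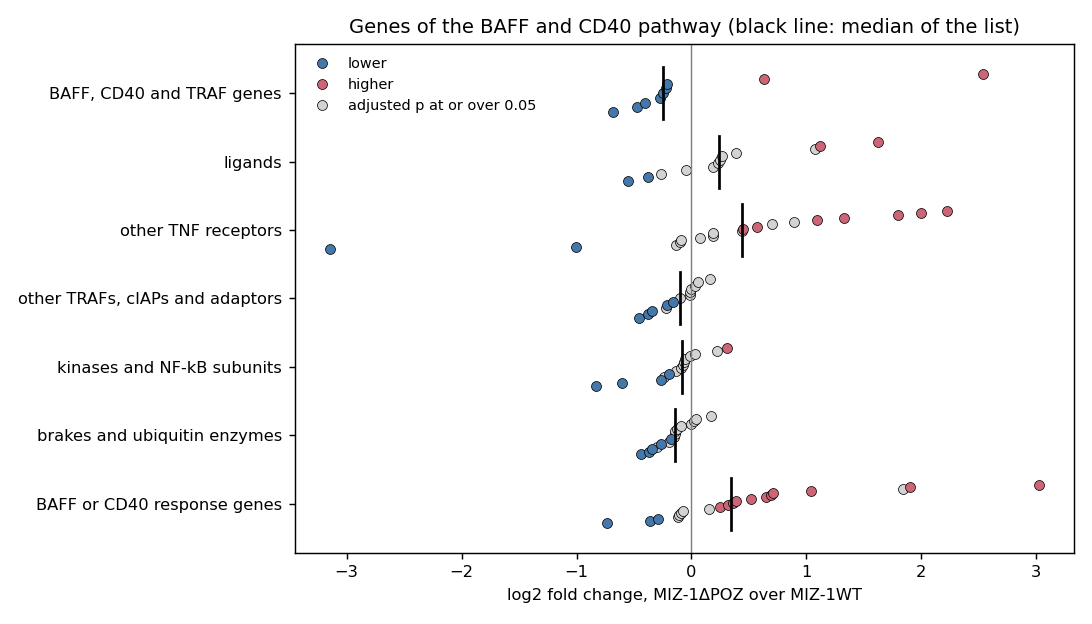
Log2 fold change of MIZ-1ΔPOZ over MIZ-1WT on the TMM scale for each tested gene of the members and of 6 pathway lists, with colours for genes past an edgeR adjusted p of 0.05 and a black line at the median of each list. The members and the lists of adaptors, kinases and brakes centre between -0.25 and -0.08, and those of other receptors and response genes at 0.44 and 0.34. Under pan-B scaling the medians of adaptors, kinases and brakes are 0.20, 0.22 and 0.15, below the 0.29 of all tested genes. Those of ligands, other receptors and response genes are 0.53, 0.74 and 0.64, above it.

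Markers of B cell stages, which differ in their use of these receptors, also moved between the genotypes. All 8 marginal zone markers were higher, summing to 2708 and 2723 CPM in MIZ-1WT and to 3430 and 3693 CPM in MIZ-1ΔPOZ (median log2 fold change 0.71). Of 6 follicular markers 4 were lower, with sums of 2336 and 2456 CPM against 1852 and 2021 CPM. Of 5 tested transitional markers 4 were lower, with sums of 720 and 627 CPM against 492 and 561 CPM. Conventional dendritic cell markers summed to between 104 and 118 CPM in MIZ-1WT and between 283 and 381 CPM in MIZ-1ΔPOZ, with 4 of 8 higher and 1 lower, and monocyte markers to between 49.9 and 52.6 CPM and between 90.4 and 118 CPM, with 5 of 8 higher. Plasmacytoid dendritic cell markers, of cells that B220 also marks, summed to 1084 and 1004 CPM in MIZ-1WT and to 871 and 904 CPM in MIZ-1ΔPOZ, with 1 of 8 higher and 1 lower (median -0.083). The part of these cell populations in the member differences was not tested.

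**Figure D5:**
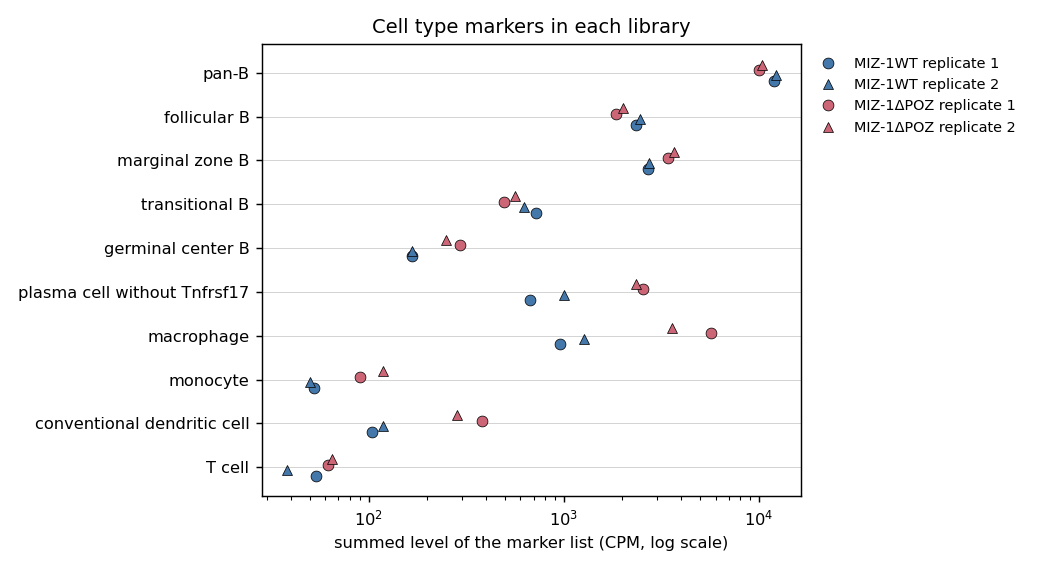
Summed level in CPM (log axis) of 10 cell type marker lists in each of the 4 libraries, with circles for replicate 1, triangles for replicate 2, blue for MIZ-1WT and red for MIZ-1ΔPOZ. The pan-B, follicular and transitional sums lie lower in both MIZ-1ΔPOZ libraries, and the marginal zone, germinal center, plasma cell, macrophage, monocyte and conventional dendritic cell sums lie higher.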

How the data were processed

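RNA-seq libraries were made from B220+ spleen cells with ribosomal RNA depletion and a stranded kit, and both ends of the fragments were read. The authors trimmed and mapped these reads (TopHat2 version 2.1.0 and GRCm38 in the submitters' processing notes), counted them per Ensembl gene with HTSeq and deposited raw counts, neither normalized nor pooled. The strand setting and the Ensembl release are not given in the sources used here. Reads that did not align uniquely were 42.8% to 44.1% of the table, and summary lines were left out. Symbols came from GENCODE on GRCm38, for 40254 of 41214 genes.

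Samples were grouped by labelled genotype. edgeR version 4.0.16 in R version 4.3.3 (TMM, quasi-likelihood test, Benjamini-Hochberg) was fitted on all tested genes and was tested on simulated data. Alternatives were DESeq2 (version 1.42.0) size factors within edgeR, DESeq2's Wald test, no count filter, a mean of at least 5 CPM, a replicate block, removal of 252 immunoglobulin segments, scaling to pan-B genes and leaving out each library, where the lone library was assumed to vary like the other genotype. Named were all members, up to 4 genes of smallest p per pathway list whose genotypes did not overlap, and 6 partners. A gene that meets this rule is not reported here. The members and lists were chosen with earlier results of these data known. Of 254 listed genes 253 were in the table. Counting intervals cover counting error only.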

Additional observations from a re-analysis of the deposited data

How the results depend on the processing

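Tnfrsf17, Traf1 and Tnfrsf13c kept their direction and passed under every alternative in which they were tested. The only setting that reversed members was scaling to the pan-B genes, which brought Tnfrsf13b to 0.073, Cd40 to 0.025, Traf2 to 0.085 and Map3k14 to 0.047. With it 3 members passed, 1 of them lower, 6790 genes of the whole table were higher and 646 lower, and 43 pathway genes were higher and 5 lower. With a mean of at least 5 CPM, Tnfrsf17 was not tested, 1 member was higher and Tnfrsf13b no longer passed (edgeR adjusted p = 0.0605). With the replicate block 4732 genes and 7 members passed, with Tnfrsf13b (edgeR adjusted p = 0.0615), Traf2 (0.058) and, of the named pathway genes, Traf6 lost. Deviations of the same-numbered libraries had a correlation of -0.0789 over genes, which shows no strong shared effect of the replicate number. With 2 libraries per genotype it cannot exclude that same-numbered libraries were prepared together, and the sample titles give only the number. Leaving out each library gave between 2222 and 5581 genes (1374 to 2955 higher, 848 to 2626 lower), 4 to 9 members (2 to 7 lower), and 19 to 46 pathway genes (14 to 21 higher, 5 to 25 lower). The fewest came without MIZ-1WT replicate 1, and the cause was not tested. DESeq2's Wald test called 5066 genes and 9 members. Of the member fold changes under alternatives, 80 kept their direction and side of the threshold, 14 no longer passed and 4 changed sign. The p-values set each difference against a spread that is estimated with help from all tested genes. With 2 libraries per genotype, this spread covers these libraries only.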
